A study of Homo sapiens with 8 samples.

Results

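TP53I3, TP53INP1, CDIP1, PHLDA3, SCN3B, AEN, PERP and PIDD1 are 8 genes that p53 switches on and that have each been tied to cell death. They were chosen with earlier results of these data known, and their probes were taken by name from the array's gene table. They have 11 of the array's 48803 probes, and all 8 passed the detection filter and stand among 12250 named genes tested. RNA was measured in HCT116, an established human colon carcinoma line with wild-type p53, with Illumina's HumanHT-12 v3 BeadChip, using 8 arrays, 2 in each of 4 groups. The groups were TAF3 siRNA with doxorubicin, non-targeting control siRNA with doxorubicin, TAF3 siRNA without doxorubicin, and non-targeting control siRNA without doxorubicin. All cells were transfected with an siRNA. Doxorubicin, a topoisomerase poison that breaks DNA, was given at 0.5 µM from 48 hours after transfection for 24 hours. By its title, the series is about how TAF3, a TFIID subunit that reads the H3K4me3 mark, helps switch on particular genes. Nothing in the labels says that the 2 arrays of a group came from separate cultures, so the p-values measure the spread between arrays, which may be technical.

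p53 is a transcription factor that is stabilised when DNA is broken and then activates genes of arrest, repair and death. Its death genes act at many points. Some work at mitochondria or through death receptors. Routes named for the 8 described here include oxidants, p53 modification, lipid signalling, membranes, nucleases and caspase scaffolds, and the routes are not exclusive. TFIID, which holds TAF3, is the general factor that helps place RNA polymerase II at promoters, and H3K4me3 is a histone mark of active promoters.

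The background threshold of the arrays lay between 81.3 and 87.3 signal units. Of 7 epithelial markers 6 were above it on all 8 arrays, and VIL1 was above it on 1 array. Of the fibroblast markers COL1A1 was above it on all 8 arrays and COL1A2, COL3A1, DCN and LUM on none. Of the blood markers CD14 was above it on 5 arrays and PTPRC, CD3E and HBB on none. The part of COL1A1 and CD14 in the results was not tested. The TAF3 transcript itself was too dim to check the knockdown. The brighter of its 2 probes gave 76.6 and 67.3 with TAF3 siRNA and doxorubicin, against 89.3 and 101.0 with control siRNA and doxorubicin, and no other array was above background. The results below are therefore effects of the TAF3 siRNA treatment. The 2 arrays of a group differed by more than 1 log2 unit in 248 of 16348 features for TAF3 siRNA with doxorubicin, 4 for control siRNA with doxorubicin, 479 for untreated TAF3 siRNA and 175 for untreated control siRNA.

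With control siRNA, doxorubicin raised all 8 genes (limma adjusted p between 0.000966 and 0.00798), where 9.09% of all features were called higher and 8.0% lower. In each of the 8 both treated arrays lay above both untreated arrays, as in 29.8% of all features. The median log2 change of the 8 was 2.03, against -0.02 over all features. A signal is a mean over the culture, so fewer responding cells and less RNA in each cell cannot be told apart. The changes differed widely in size, from 1.14 for PERP to 5.08 for TP53I3. AEN (adjusted p = 0.0833) and PIDD1 (0.0817) were not called by limma without control siRNA doxorubicin replicate 2, PERP (0.0568) and PIDD1 (0.0608) without replicate 4, and PIDD1 (0.0556) without untreated control siRNA replicate 1.

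TP53I3 encodes a quinone oxidoreductase that p53 induces and that has been linked to the production of reactive oxygen species. Its brightest probe gave signals of 15812 and 16268 on the control siRNA doxorubicin arrays, against 637 and 331 on the untreated control siRNA arrays. The treated arrays were close together and far above the untreated pair, which differed from each other by a factor of 1.92. The log2 change was 5.08 ± 0.67 (SE, 2 arrays per group; limma adjusted p = 0.00284). A second TP53I3 probe, for the transcript NM_004881, gave 1259 and 1192 against 91.9 and 73.8, and its log2 change was 3.81 ± 0.60 (adjusted p = 0.0048). That probe was above background on 1 of the 2 untreated control siRNA arrays, so its change is less exact.

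TP53INP1 encodes a nuclear stress protein that works with kinases to modify p53 and also takes part in autophagy. Its brightest probe gave 3210 and 3043 with control siRNA and doxorubicin, against 193 and 252 in untreated control siRNA cells. Both of its probes were above background on every array, and both rose. The log2 change was 3.74 ± 0.28 by the brighter probe (limma adjusted p = 0.000966) and 3.36 ± 0.29 by the other. Among the 8 genes only TP53I3 had a larger fitted change.

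PIDD1 and CDIP1 came next in size. PIDD1 is a death domain protein that forms a caspase-2-activating complex with CRADD. It gave 1858 and 1980 with control siRNA and doxorubicin, against 327 and 380 in untreated control siRNA cells, a log2 change of 2.35 ± 0.42. CDIP1 is a pro-apoptotic membrane protein. It gave 665 and 492 with control siRNA and doxorubicin, against 77.8 and 90.6 in untreated control siRNA cells, of which the second array was above background. Its log2 change was 2.67 ± 0.26.

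SCN3B, the beta-3 subunit of voltage-gated sodium channels, was below background in untreated cells with either siRNA. It gave 273 and 195 with control siRNA and doxorubicin, against 77.0 and 68.1 in untreated control siRNA cells. It was at least 2.61-fold higher with doxorubicin (adjusted p = 0.00196), where such a bound sets the brighter group's mean against the background threshold of the dim arrays. Its second probe was below background on all 8 arrays.

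PHLDA3, AEN and PERP were well above background in untreated cells and rose less. PHLDA3 is a small pleckstrin homology protein that competes with AKT kinases for membrane lipids and so holds them back. It gave 1145 and 1270 with control siRNA and doxorubicin, against 383 and 306 in untreated control siRNA cells (log2 change 1.72 ± 0.22). PERP, a tetraspan membrane protein found in desmosomes and needed for some forms of p53-dependent death, gave 1509 and 1928 against 741 and 709 (1.14 ± 0.19). AEN, an exonuclease of the nucleus that helps digest DNA in dying cells, gave 3815 and 3546 against 1505 and 1513 (1.21 ± 0.21). In these 3 genes the groups did not overlap.

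The promoter windows of 5 of the 8 genes (TP53I3, CDIP1, AEN, PERP and PIDD1; 6 windows, from 250 bases before to 50 after the start, RefSeq, GRCh38.p14) were searched on both strands for the consensus p53 half-site and for the TATA box TATAAA. The half-site was found in AEN, and 6.63% of all 35116 windows hold one. TATAAA was found in none of the 6, and 11.5% of all windows hold it. The 250 bases before the start are shown for AEN, whose half-site is in capitals 34 to 25 bases before the start, and for TP53I3, the gene with the largest change, which has no match. A match is a run of letters and not a measured binding site, and sites outside these windows were not searched.
AEN, chr15:88621090-88621339, plus strand: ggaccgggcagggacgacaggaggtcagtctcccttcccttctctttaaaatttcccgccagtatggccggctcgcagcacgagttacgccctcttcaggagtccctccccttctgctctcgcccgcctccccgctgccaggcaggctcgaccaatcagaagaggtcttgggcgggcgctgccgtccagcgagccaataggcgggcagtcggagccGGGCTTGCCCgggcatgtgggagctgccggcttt
TP53I3, chr2:24084835-24085084, minus strand: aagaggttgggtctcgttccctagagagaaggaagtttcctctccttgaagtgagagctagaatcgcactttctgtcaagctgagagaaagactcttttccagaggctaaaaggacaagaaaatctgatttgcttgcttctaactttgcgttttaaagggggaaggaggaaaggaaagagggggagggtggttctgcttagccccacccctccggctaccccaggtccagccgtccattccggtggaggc

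**Figure D1:**
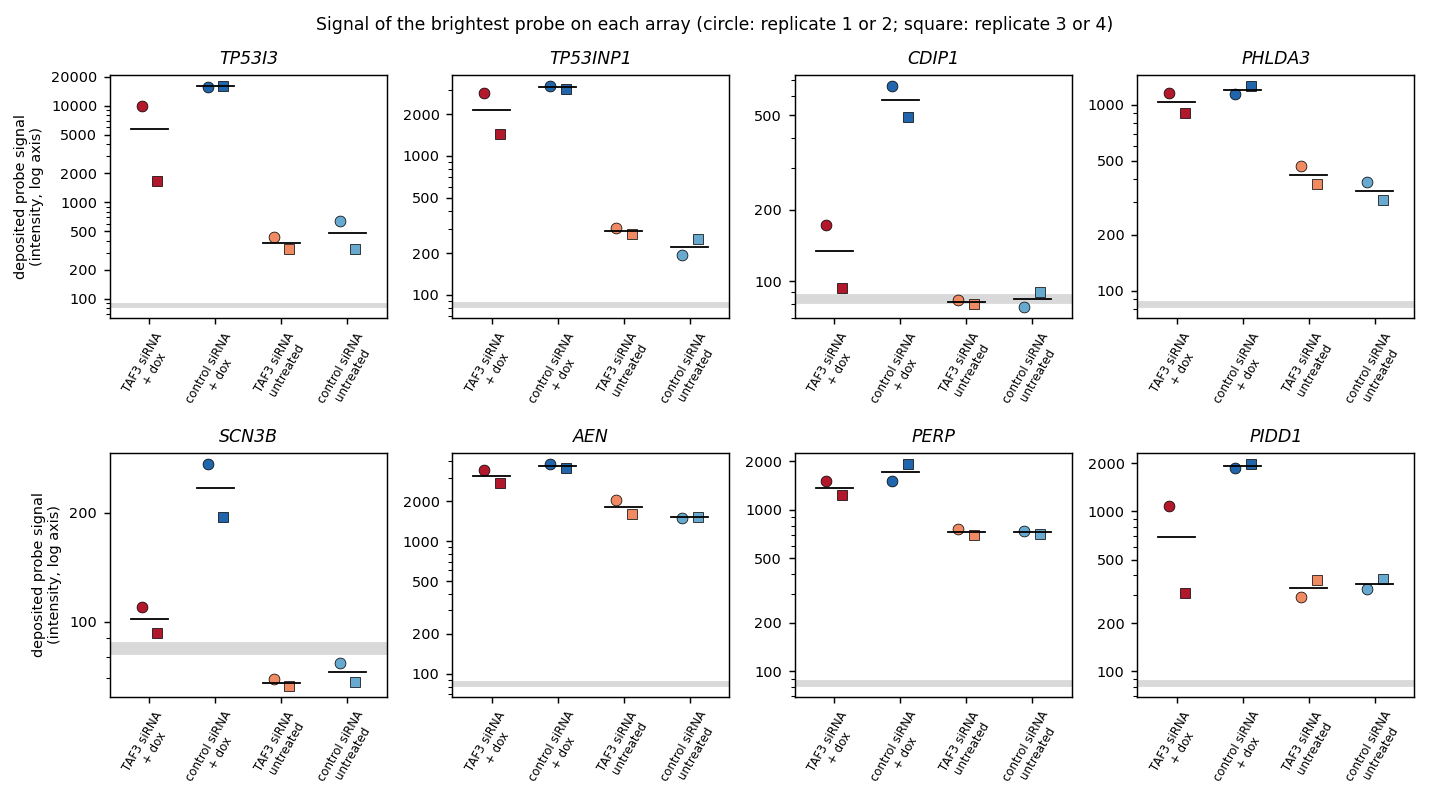
Deposited signal of each gene's brightest probe (vertical log axis, intensity units) on every array, by group. Points are single arrays, black bars are means of 2 arrays, and the grey band is the range of the background thresholds, 81.3 to 87.3; the pair of TAF3 siRNA doxorubicin arrays is widely split for TP53I3 and PIDD1.

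With TAF3 siRNA, doxorubicin raised 5 of the 8 genes by limma, where 2.07% of all features were called higher and 2.58% lower. The 5 were TP53INP1, TP53I3, PHLDA3, PERP and AEN. CDIP1, SCN3B and PIDD1 were not called. The median log2 change of the 8 was 0.99, against 0.01 over all features, and it was the same with CDIP1 and SCN3B at their bounds. In 7 of the 8 genes both treated arrays lay above both untreated arrays, as in 24.6% of all features. The exception was PIDD1.

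TP53INP1 gave 2828 and 1434 with TAF3 siRNA and doxorubicin, against 303 and 275 in untreated TAF3 siRNA cells. The groups were far apart although the treated arrays differed by a factor of 1.97. The log2 change was 2.91 ± 0.28 (limma adjusted p = 0.00422), and this call held whichever of the 8 arrays was left out. TP53I3 gave 9930.3 and 1674 with TAF3 siRNA and doxorubicin, against 434 and 330.3 in untreated TAF3 siRNA cells. Its log2 change was 3.57 ± 0.67 (adjusted p = 0.0238), but the treated arrays were 5.93-fold apart. The change was 2.30 without TAF3 siRNA doxorubicin replicate 2 (adjusted p = 0.0635) and 4.84 without replicate 4 (adjusted p = 0.00322). By the second TP53I3 probe, with 857 and 143 against 97.0 and 79.3, the change of 1.99 ± 0.60 was not called (adjusted p = 0.0952).

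PHLDA3 gave 1156 and 906 with TAF3 siRNA and doxorubicin, against 469 and 375 in untreated TAF3 siRNA cells (log2 change 1.37 ± 0.22; limma adjusted p = 0.0137). PERP gave 1509 and 1233 against 765 and 699 (1.02 ± 0.19; adjusted p = 0.0236). AEN gave 3438 and 2763 against 2050.2 and 1588 (0.96 ± 0.21; adjusted p = 0.0366). In all 3 the doxorubicin arrays with TAF3 siRNA were near those with control siRNA.

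The other 3 genes were not called. PIDD1 gave 1075 and 309 with TAF3 siRNA and doxorubicin, against 291 and 374 in untreated TAF3 siRNA cells. Replicate 4 thus lay between the untreated arrays and replicate 2 well above them, and the fitted change was 0.89 ± 0.42 (limma adjusted p = 0.273). CDIP1 gave 173 and 94.3 against 83.9 and 80.1, with both untreated arrays below background. Its bound was at least 1.47-fold (adjusted p = 0.223). SCN3B gave 110 and 93.1 against 69.2 and 66.5, also below background, with a bound of at least 1.17-fold (adjusted p = 0.133). PIDD1 had a change of 0.05 without TAF3 siRNA doxorubicin replicate 2 (adjusted p = 0.929), and was called without replicate 4, with a change of 1.72 (adjusted p = 0.00507).

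The count of 5 rests on few arrays. It was lower without TAF3 siRNA doxorubicin replicate 2 and without untreated TAF3 siRNA replicate 3. It was also lower when any control siRNA array, treated or untreated, was left out. Calls over all features were also fewer in those fits, so the loss of calls was not particular to these genes. The AEN call was the least stable, made in 1 of the 8 fits that leave out an array, with adjusted p-values up to 0.183. A fit without an array leaves that group 1 array, which is then assumed to vary like the other groups. With only these 2 groups in the fit the count was 0 for the 8 genes and also 0 for all 16348 features. The limma adjusted p-values of the 5 genes then ran from 0.0567 to 0.159. All 8 log2 changes were positive in each of these fits.

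**Figure D2:**
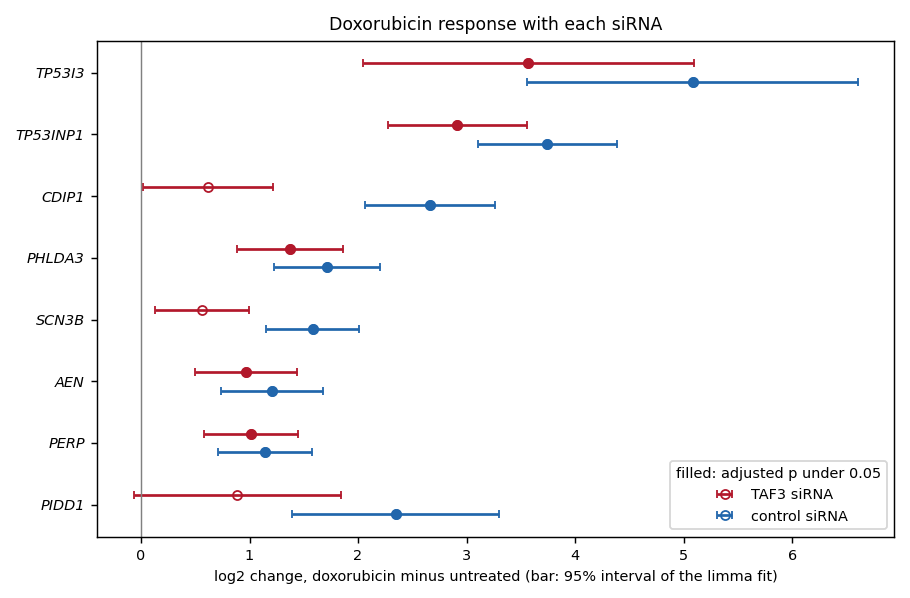
Log2 change of each gene (horizontal axis, doxorubicin minus untreated) with TAF3 siRNA (red, upper) and control siRNA (blue, lower), with 95% intervals of the limma fit; filled points have an adjusted p under 0.05. All 8 points are filled with control siRNA and 5 with TAF3 siRNA, and the fitted values of CDIP1 and SCN3B include arrays below background.

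Under doxorubicin the siRNAs were then compared directly. CDIP1, SCN3B and PIDD1 were lower with TAF3 siRNA, 3 of the 8, where 7.3% of all features were called lower and 6.55% higher, and none of the 8 was higher. The comparison uses the same control siRNA doxorubicin arrays as the first one, so its calls are not independent of those above. CDIP1, at 173 and 94.3 with TAF3 siRNA against 665 and 492 with control siRNA, had a log2 change of -2.09 ± 0.26 (limma adjusted p = 0.00612). PIDD1, at 1075 and 309 against 1858 and 1980, had -1.66 ± 0.42 (adjusted p = 0.0355). SCN3B, at 110 and 93.1 against 273 and 195, had -1.11 ± 0.19 (adjusted p = 0.0114). In each of the 3, both TAF3 siRNA arrays lay below both control siRNA arrays, as in 29.0% of all features.

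TP53I3 and TP53INP1 also lay lower on both TAF3 siRNA arrays, but neither was called. TP53I3, at 9930.3 and 1674 with TAF3 siRNA against 15812 and 16268 with control siRNA, had a log2 change of -1.90 ± 0.67 (limma adjusted p = 0.0933). TP53INP1, at 2828 and 1434 against 3210 and 3043, had -0.53 ± 0.28 (adjusted p = 0.243). Its other probe overlapped between siRNAs, at 2714 and 1378 against 2476 and 2863.

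For PHLDA3, AEN and PERP the normalized arrays of the siRNAs overlapped, although in deposited signal AEN and PERP lay lower on both TAF3 siRNA arrays. PHLDA3 differed by -0.16 ± 0.22, with a 95% interval from -0.65 to 0.32. AEN differed by -0.14 ± 0.21 (-0.61 to 0.33) and PERP by -0.25 ± 0.19 (-0.68 to 0.18).

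Several of these values rest on a pair of TAF3 siRNA doxorubicin arrays that differed from each other in the genes described here. All 8 genes were lower on replicate 4 than on replicate 2, while 49.5% of all features were. In deposited signal every tested gene of the p53 core and its feedback, described below, was also lower on replicate 4. The other p53 death genes described below went both ways. The direction of the split was thus not particular to the 8 genes. For TP53I3 the arrays were 2.54 log2 units apart, and 1 of 16348 features lay further apart. For PIDD1 the gap was 1.67, with 26 features further apart, for TP53INP1 0.92 (336 features) and for CDIP1 0.80 (596 features). For PHLDA3, AEN, PERP and SCN3B it was 0.19 to 0.24, and at least 7204 features were further apart. On the control siRNA doxorubicin arrays no gene of the 8 was over 0.49 apart, but for SCN3B (0.49) and CDIP1 (0.47) only 612 and 757 features were further apart. Of the 8 genes, 7 were also higher on the lower-numbered array of untreated TAF3 siRNA cells, as were 52.0% of all features. Set against the mean of the control siRNA doxorubicin arrays, TP53I3 was at -0.63 on replicate 2 and -3.17 on replicate 4, PIDD1 at -0.82 and -2.49, and CDIP1 at -1.69 and -2.49. SCN3B was at -1.02 and -1.20, and TP53INP1 at -0.07 and -0.99.

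Without TAF3 siRNA doxorubicin replicate 2 limma also called TP53I3, at -3.18, and TP53INP1, at -1.0, lower. Without replicate 4 TP53I3 was at -0.62, PIDD1 at -0.82 and SCN3B at -1.02, and the PIDD1 and SCN3B calls were lost. Over all features, calls also rose without this replicate 2 and fell without this replicate 4, so these shifts were not particular to the 8 genes. Without control siRNA doxorubicin replicate 2 none of the 8 was called, and by limma 3 of all features were, with 2933 features at an unadjusted p under 0.05. CDIP1 was then at -1.86 (adjusted p = 0.102) and SCN3B at -0.86 (adjusted p = 0.13). PIDD1 was called in 3 of the 8 fits that leave out an array, SCN3B in 6 and CDIP1 in 7.

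**Figure D3:**
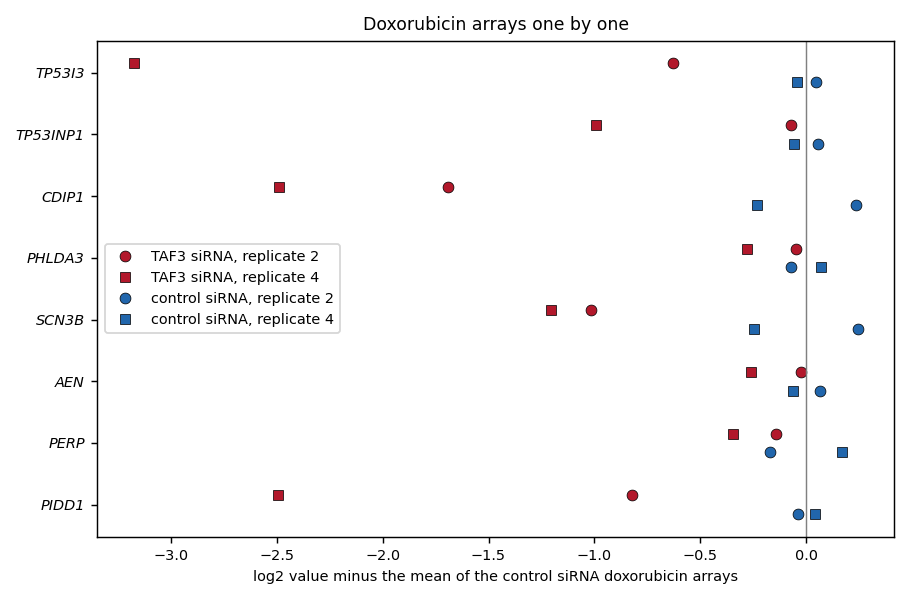
Log2 value on each doxorubicin array minus the mean of the control siRNA doxorubicin arrays (horizontal axis), for TAF3 siRNA (red, upper) and control siRNA (blue, lower); circles are replicate 2 and squares replicate 4. TAF3 siRNA replicate 4 lies leftmost in all 8 genes, at -3.17 for TP53I3, while PHLDA3, AEN and PERP stay within 0.35 of the control mean.

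In untreated cells TAF3 siRNA changed none of the 8 genes by limma, and 0.0% of all features were called in either direction (0 of the 8 and 1974 of all features had an unadjusted p under 0.05). Log2 changes ran from -0.39 ± 0.67 for TP53I3 to 0.30 ± 0.28 for TP53INP1. After normalization the arrays of the siRNAs overlapped in every gene but PIDD1, which lay lower on both TAF3 siRNA arrays, as did 19.6% of all features. In deposited signal PIDD1 overlapped, at 291 and 374 with TAF3 siRNA against 327 and 380 with control siRNA, while TP53INP1 and AEN lay higher on both TAF3 siRNA arrays. The normalized change of PIDD1 was -0.20 ± 0.42 (limma adjusted p = 0.899).

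The difference between the siRNAs in the doxorubicin response was called for none of the 8 by limma, where 0.0367% of all features were called. An unadjusted limma p under 0.05 was found for 3 of the 8 and for 2424 of all 16348 features. It was -1.46 ± 0.60 for PIDD1 (adjusted p = 0.308) and -1.52 ± 0.95 for TP53I3 (0.511). The fitted values of -2.05 ± 0.37 for CDIP1 (0.0912) and -1.02 ± 0.27 for SCN3B (0.143) use untreated arrays below background, on which the level is only bounded, so their sizes are not exact. TP53INP1 had -0.83 ± 0.40 (0.379). PHLDA3, AEN and PERP had -0.35, -0.25 and -0.13, with adjusted p from 0.659 to 0.886. CDIP1 (-2.45, adjusted p = 0.017), PIDD1 (-2.31, adjusted p = 0.0103) and TP53I3 (-2.79, adjusted p = 0.0427) were called without TAF3 siRNA doxorubicin replicate 2. CDIP1 was also called with a robust prior that follows the signal level (limma adjusted p = 0.0412). Over all features 90 were called with that prior, against 6 in the main fit. Calls over all features also rose without TAF3 siRNA doxorubicin replicate 2, so these added calls were not particular to the 8 genes.

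Other p53 targets give the setting. Of 8 tested genes of the p53 core and its feedback, 5 rose with doxorubicin and TAF3 siRNA (2.07% of all features did) and 7 with doxorubicin and control siRNA (9.09% did). CDKN1A, the cell cycle inhibitor p21, gave 32362 and 26645 with TAF3 siRNA and doxorubicin, against 28392 and 31800 with control siRNA and doxorubicin. MDM2, the ligase that degrades p53, gave 257 and 182 against 163 and 201. None of the 8 core genes was called by limma between siRNAs under doxorubicin, where 7.3% of all features were called lower and 6.55% higher. Among 8 genes a count of 0 is near those shares. Of the 8, 1 had an unadjusted p under 0.05, against 4990 of 16348 features. It was SESN2, at 177 and 115 with TAF3 siRNA against 286 and 258 with control siRNA (-0.84 ± 0.26, limma adjusted p = 0.0618). The median of the core genes was 0.05.

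Of 22 tested other p53 death genes, 8 rose and 1 fell with doxorubicin and TAF3 siRNA, and 10 rose and 2 fell with doxorubicin and control siRNA. Of all features 2.07% rose and 2.58% fell with TAF3 siRNA, and 9.09% rose and 8.0% fell with control siRNA. With control siRNA the smallest p-values belonged to EI24 (1.11 ± 0.16), APAF1 (2.35 ± 0.36), DRAM1 (1.45 ± 0.24) and FAS (1.51 ± 0.26). APAF1 forms the apoptosome, DRAM1 is a lysosomal protein of autophagy and FAS is a death receptor. With TAF3 siRNA they were SIVA1, which fell (-0.96 ± 0.16), TRIAP1 (0.84 ± 0.15), BBC3 (0.97 ± 0.18), the BH3-only protein PUMA, and DRAM1 (1.27 ± 0.24).

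Between siRNAs under doxorubicin 3 of these 22 were lower with TAF3 siRNA and 2 higher, counts near the 7.3% and 6.55% of all features. APAF1, at 2354 and 937 with TAF3 siRNA against 4286 and 3407 with control siRNA, changed by -1.28 ± 0.36 (limma adjusted p = 0.048). TP53I13 changed by -1.16 ± 0.22 and TP53I11 by -1.31 ± 0.33. BNIP3L, a mitophagy receptor, was higher by 0.96 ± 0.17 and IER3 by 0.61 ± 0.17. The list's median was -0.14, against -0.82 for the 8 genes and 0.03 over all features. Both the 8 genes and the list were chosen with earlier results of these data known, so no conclusion is drawn from the difference in medians.

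**Figure D4:**
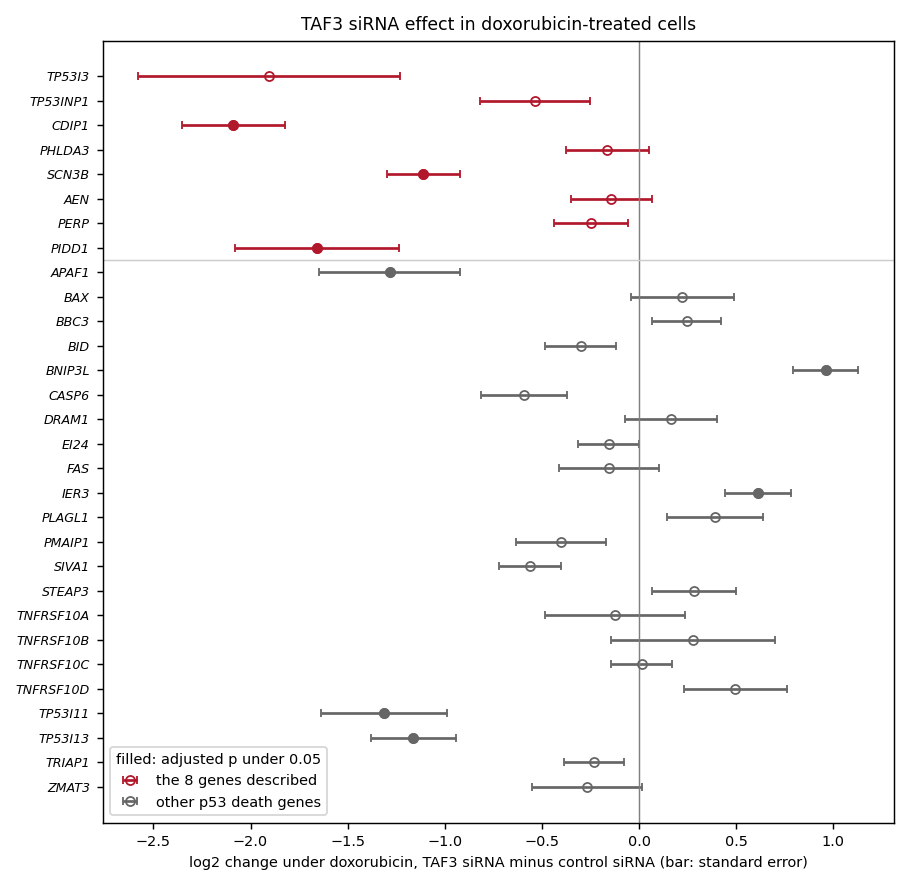
Log2 change under doxorubicin, TAF3 siRNA minus control siRNA (horizontal axis), with standard errors, for the 8 genes (red) and 22 other p53 death genes (grey); filled points have an adjusted p under 0.05. CDIP1, SCN3B and PIDD1 are filled on the negative side, and in the other list 3 genes are lower and 2 higher.

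The genes with the most similar profiles were found by the root mean square difference of log2 values over the 8 arrays, each gene centred on its own mean, a measure that follows the size of a change. TP53I3 was nearest to AKR1B10, an aldo-keto reductase (0.74 log2 units), TP53INP1 (0.91) and CBS, the transsulfuration enzyme (0.91). TP53INP1 was nearest to ACTA2, smooth muscle actin (0.26), CCN2, a matricellular growth factor (0.48), and AKR1B10 (0.50). CDIP1 was nearest to EMX1 (0.13), SLC12A4 (0.16) and OSBPL7 (0.20), and PIDD1 to CD82 (0.14), CA2 (0.15) and INKA1 (0.15). PHLDA3 was nearest to PRDM1 (0.11), LINC01173 (0.14) and PLK2 (0.17), AEN to PHYH (0.08), ISCU (0.11) and ZNF79 (0.12), and PERP to GSDME (0.12), SRSF8 (0.13) and TNIP1 (0.14). SCN3B was nearest to MYBPHL (0.06), NUAK2 (0.12) and CKM (0.13). Among the 8 genes, AEN and PERP were closest to each other (0.16), followed by PHLDA3 and AEN (0.25), PHLDA3 and PERP (0.27) and CDIP1 and PIDD1 (0.31).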

How the data were processed

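The authors deposited linear intensity values for each probe of the 8 arrays. BeadStudio is named, with no version, in the submitters' processing notes, and further steps are not given in the sources used here. Another table deposited by the authors has detection columns headed as p-values. These rise with the signal, so 1 minus the value was used, and only to count the arrays with a detection p under 0.05; its 8 signal columns name no sample and were not used. Groups came from the sample titles. Signals were background-corrected by normexp with an offset of 50, quantile normalized and put on the log2 scale, on which changes of dim probes are understated. Probes detected on at least 2 arrays (20628) were kept, and the brightest stood for its gene, giving 16348 features. Gene names came from the platform's gene table, in which 28098 probes have 1 symbol, 13 have several and 20692 are not listed, updated through gene numbers in RefSeq (28059 matched). No build is named for the probes. The 4 group means were fitted by lmFit and eBayes of limma (version 3.58.1, R 4.3.3), and p-values were adjusted by Benjamini-Hochberg over all features within each of 5 comparisons, called at 0.05. The fit was tested on simulated data. The members and gene lists were chosen with earlier results of these data known. Named genes are the 8 members, TAF3, per list and comparison up to 4 called genes with the smallest p, partners and relatives of the members, and the 3 most similar named genes of each member; APAF1 between siRNAs was named after its values were seen. Alternatives were other background correction, offset, normalization, filters, probe rules and priors, fits of 2 groups, a replicate block and leaving out each array. The number of arrays limits the precision.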

Additional observations from a re-analysis of the deposited data

How the results depend on the processing

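With 1 setting changed at a time, other than leaving out an array, all 8 genes were called higher with doxorubicin and control siRNA whenever all were tested; on probes detected on all 8 arrays 6 were tested (not CDIP1 and SCN3B) and 6 called, and the count was 6 to 8 with an array left out. The 5 called with TAF3 siRNA were 0 in a fit of these groups alone, in which 0 of all 16348 features were called. They were 4 on plain log2 signals or after median centring (AEN lost), and the count varied with an array left out. The 3 lower with TAF3 siRNA under doxorubicin were 1 (PIDD1, of 6 tested) on probes detected on all arrays, 2 on plain log2 signals, after median centring or with no filter on dim probes (PIDD1 lost, adjusted p = 0.0504, 0.05 and 0.0605), and 0 to 5 with an array left out. The difference between responses was called for 1 gene with a robust prior and trend and for 0 to 3 with an array left out; in untreated cells the count was 0 throughout. For the difference between responses the robust prior and trend called 90 of all features, against 6 in the main fit. With a normexp offset of 16 the fitted doxorubicin change with control siRNA was 2.21 in place of 1.58 for SCN3B and 3.29 in place of 2.67 for CDIP1, neither exact with untreated arrays below background. With the mean of kept probes TP53I3 changed by 2.78 in place of 3.57 with TAF3 siRNA and by 4.45 in place of 5.08 with control siRNA. Signs changed only in changes that were not called. PERP in untreated cells was -0.12, but 0.0128 on plain log2 signals and 0.0044 after median centring. With an array left out the untreated changes ran from -0.88 to 0.11 for TP53I3, -0.16 to 0.0752 for CDIP1, -0.0808 to 0.45 for PHLDA3, -0.19 to 0.40 for AEN and -0.30 to 0.0619 for PERP, and the difference between responses from -0.54 to 0.0503 for AEN and -0.31 to 0.0543 for PERP. Replicate numbers are shared by siRNAs within a treatment, but the labels do not say that they mark a shared culture, and the differences between replicates correlated across features with r = -0.03 untreated and 0.21 with doxorubicin. With a replicate block 4 of the 8 were called lower with TAF3 siRNA under doxorubicin, TP53I3 being added at -1.90 (limma adjusted p = 0.0443). Over all 16348 features 1275 were then called lower, against 1193 without the block. In the other 2 siRNA comparisons 0 of the 8 were called with the block. Doxorubicin and untreated arrays share no replicate number, so no paired analysis was possible for the doxorubicin responses. Over all features, calls with doxorubicin and control siRNA were 1486 higher and 1308 lower, but 1498 and 836 on plain log2 signals; with TAF3 siRNA they were 339 and 421, but 203 and 468. Leaving out control siRNA doxorubicin replicate 2 cut the calls between siRNAs under doxorubicin to 3 of 16348, against 2264 with all arrays, and calls of a different response, 6 with all arrays, ran from 0 to 323. Signals near background limit CDIP1, SCN3B and the second TP53I3 probe.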

Other observations

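Of 11 tested partners and functional neighbours, 1 rose and 1 fell with doxorubicin and control siRNA, near the 9.09% and 8.0% of all features. With doxorubicin and TAF3 siRNA 1 of the 11 rose, where 2.07% of all features did. MAP1LC3B, an autophagosome protein, rose with doxorubicin with TAF3 siRNA (1.16 ± 0.20, limma adjusted p = 0.0187) and with control siRNA (0.71 ± 0.20, adjusted p = 0.0428). HIPK2, a kinase of p53, fell with doxorubicin and control siRNA (-1.09 ± 0.25, adjusted p = 0.0212). CASP2 (0.69 ± 0.22) and CRADD (-0.41 ± 0.18), which form a complex with PIDD1, were not called in that comparison. Between siRNAs under doxorubicin 1 of the 11 was called lower, near the 7.3% of all features. This was PRKCD, another kinase that works with TP53INP1. It gave 1059 and 580.3 with TAF3 siRNA, against 2832 and 2560 with control siRNA (-1.71 ± 0.35, adjusted p = 0.0178). Its untreated arrays with TAF3 siRNA were far apart, at 605 and 1596, against 1415 and 1348 with control siRNA.

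Among 8 tested relatives of these genes, PHLDA1, a relative of PHLDA3, went down where PHLDA3 rose. It was the only relative called in any comparison, a count near the shares of all features. Of all features 8.0% were called lower with doxorubicin and control siRNA, and 6.55% higher with TAF3 siRNA under doxorubicin. PHLDA1 gave 5469 and 6856 with control siRNA and doxorubicin, against 14456 and 18317 in untreated control siRNA cells (-1.35 ± 0.24, limma adjusted p = 0.0079). Under doxorubicin it was higher with TAF3 siRNA, at 12084 and 15507, than with control siRNA (1.22 ± 0.24, adjusted p = 0.0166). With TAF3 siRNA the untreated arrays gave 18728 and 13036, and the doxorubicin change of -0.06 ± 0.24 was not called. LITAF, a relative of CDIP1, CRYZ and VAT1, relatives of TP53I3, and TP53INP2 were called in no comparison.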
